A study of Mus musculus with 4 samples.

Results

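The granzymes and cytotoxic granule genes Gzma, Gzmb, Gzmk, Gzmm, Prf1, Nkg7, Ctla2a and Srgn were followed in invariant natural killer T (iNKT) cells of the mouse thymus. They were chosen by gene symbol and not by a rule on measured values, but with earlier results of these data known. All 8 were found among the 32285 genes of the deposited count tables. The cells came from 2 inbred strains, BALB/c and B6, which the labels give as the genotype, with no transgene, treatment or age. Live thymocytes positive for CD3 and for a CD1d tetramer carrying PBS57, a glycolipid antigen, had been sorted, and their RNA was counted cell by cell from droplet-based 5' libraries, 2 per strain. The sources used here do not say whether both libraries of 1 strain come from different animals. So p-values measure at most the spread between these libraries, which may be technical.

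Cytotoxic lymphocytes keep their killing proteins in secretory granules that are released at the contact with a target cell. Perforin, encoded by Prf1, forms pores in the target membrane, and granzymes are serine proteases that enter through them. Granzyme A has trypsin-like activity, granzyme B cleaves after aspartate and activates caspases, and granzymes K and M are further family members. Serglycin, encoded by Srgn, is the proteoglycan that packs granule proteins and is also made by many blood cells without such granules. Nkg7 is a granule membrane protein needed for efficient granule release. Ctla2a encodes an inhibitor of cysteine proteases that resembles the propeptide of cathepsins. iNKT cells recognise lipids on CD1d and split in the thymus into subsets: iNKT1 cells, which depend on the transcription factor T-bet and make interferon gamma, iNKT2 cells, which make interleukin 4, and iNKT17 cells, which make interleukin 17. The cytotoxic program is known as a trait of the iNKT1 subset.

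The members lie on 4 chromosomes of GRCm38 by the GENCODE vM21 annotation, all as protein-coding genes. Gzma (chr13:113093825-113100981) and Gzmk (chr13:113171608-113225908) lie 70626 bases apart on the minus strand of chromosome 13. Gzmb (chr14:56258838-56262260, minus strand) lies in another granzyme cluster on chromosome 14. Gzmm, Prf1 and Srgn are on chromosome 10, Nkg7 is on chromosome 7, and Ctla2a is on chromosome 13. Introns make up 85.9% of the Gzma gene, 97.4% of Gzmk and 93.5% of Srgn, but 22.3% of Nkg7 and 14.7% of Ctla2a. This bears on the counts because the file headers name Cell Ranger 7.1.0 for B6 2 and 6.0.0 for the other libraries. The sources used here do not say whether intron reads were counted.

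Promoters of 3 members are printed because their genes took very different courses in these cells. Gzma was abundant in a minority of iNKT1-like cells, Gzmb was found in about as many of these cells as not, and Gzmk was almost undetected although it lies close to Gzma. Each is the 250 bases before the transcription start of the RefSeq table for GRCm38.p6, on the minus strand: chr13:113100982-113101231 for Gzma, chr14:56262335-56262584 for Gzmb and chr13:113180966-113181215 for Gzmk. The windows of Gzma and Gzmb lie upstream of the GENCODE gene and hold no exon base of it, and that of Gzmk lies in an intron of a longer GENCODE model of the gene. Capitals mark matches to a Runx motif (TGTGGT) or a T-box motif (TCACAC) on either strand, the motifs of factors active in cytotoxic lymphocytes.
Gzma: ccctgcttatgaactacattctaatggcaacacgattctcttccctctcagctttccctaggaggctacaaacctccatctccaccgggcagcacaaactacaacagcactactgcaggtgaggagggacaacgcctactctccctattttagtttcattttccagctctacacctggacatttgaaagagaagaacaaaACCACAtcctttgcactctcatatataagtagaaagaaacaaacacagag
Gzmb: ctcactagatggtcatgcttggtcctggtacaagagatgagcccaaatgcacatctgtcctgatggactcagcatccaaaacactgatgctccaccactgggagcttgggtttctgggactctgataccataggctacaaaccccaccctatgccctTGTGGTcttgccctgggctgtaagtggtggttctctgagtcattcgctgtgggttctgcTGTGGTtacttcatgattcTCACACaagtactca
Gzmk: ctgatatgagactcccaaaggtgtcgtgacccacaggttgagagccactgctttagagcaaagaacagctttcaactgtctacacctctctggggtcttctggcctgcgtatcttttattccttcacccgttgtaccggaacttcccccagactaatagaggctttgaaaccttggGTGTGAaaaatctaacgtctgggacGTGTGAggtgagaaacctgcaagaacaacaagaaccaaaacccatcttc

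The Runx letters stood at 50 to 45 bases before the start of Gzma, at 93 to 88 and 34 to 29 bases before that of Gzmb, and nowhere in the Gzmk window. The T-box letters stood at 15 to 10 bases before the start of Gzmb, at 74 to 69 and 49 to 44 bases before that of Gzmk, and nowhere in the Gzma window. Among 32817 promoter windows of the same length, 14% held the Runx letters and 12.3% the T-box letters. Prf1 and Nkg7 also held the Runx letters, and so did 1 of the windows listed for Gzmm and 1 of those for Srgn. The T-box letters were also in the Nkg7 window, at 12 to 7 bases before the start, and in 1 of those for Gzmm, at 188 to 183. The other strings were searched on both strands with overlaps allowed. They were AP-1 (TGANTCA, held by 6.75% of windows), STAT (TTCNNNGAA, 7.02%), ETS (GGAAGT, 19.7%), NFAT (GGAAAA, 20.4%), the TATA box searched as the letters TATAAA (12.4%), and CRE (TGACGT, 6.46%). Of these, Gzma's window held the NFAT letters, that of Gzmb the AP-1 letters and that of Gzmk the ETS letters. These matches describe letters in a window and are not measured binding sites.

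The files held 2038 and 2056 cell barcodes for BALB/c and 2494 and 9732 for B6, with total UMI counts between 20406245 and 82904358. Filtering kept 1864, 1913, 2328 and 8788 cells with medians of 6932.5 to 11014 UMIs, and pairs of libraries shared 4 to 33 barcodes. Cd3e, which encodes a chain of the T cell receptor complex, was at 1146 to 1209 CPM, the gene's UMI count scaled to a common total for all libraries, over the libraries. Classes were named from markers that include none of the 8 genes, after clustering with these genes left out. The iNKT1-like share of kept cells was 14.9% and 31.3% in BALB/c against 59.97% and 53.7% in B6, and the iNKT2-like share 47.4% and 37.1% against 8.98% and 12.6%. Between 7.67% and 18.8% of cells stayed unnamed, most of them in B6 2. The iNKT1-like cells of BALB/c were nearly all in cluster 4 and those of B6 in clusters 11, 12, 15 and 19. The B6 libraries did not share these evenly: B6 1 and B6 2 had 1018 and 375 cells in cluster 11, 9 and 2036 in cluster 12, and 19 and 1234 in cluster 19. Over all kept cells the chi-square per degree of freedom was 99.5 between the B6 libraries against 8.40 between those of BALB/c, a value that also rises with depth. The cause was not tested. The iNKT2-like cells of BALB/c were mostly in cluster 1 and those of B6 in cluster 8.

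Gzma, Gzmb, Prf1 and Nkg7 were genes of the iNKT1-like cells, Srgn was found across the iNKT classes, and Ctla2a stood between them. iNKT1-like cells held 89.5% to 94.6% of the Gzma UMIs of a library, 83.6% to 93.5% of the Gzmb UMIs, 79.0% to 88.5% of those of Prf1 and 80.3% to 92.5% of those of Nkg7. For Ctla2a the part was 43.0% and 60.1% in BALB/c against 86.8% and 76.5% in B6, and iNKT2-like cells held 43.4% and 31.9% of it in BALB/c. Srgn had only 7.51% and 16.8% of its UMIs in iNKT1-like cells in BALB/c against 51.3% and 41.8% in B6. These parts move with the number and depth of cells in each class as well as with the level per cell.

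**Figure D1:**
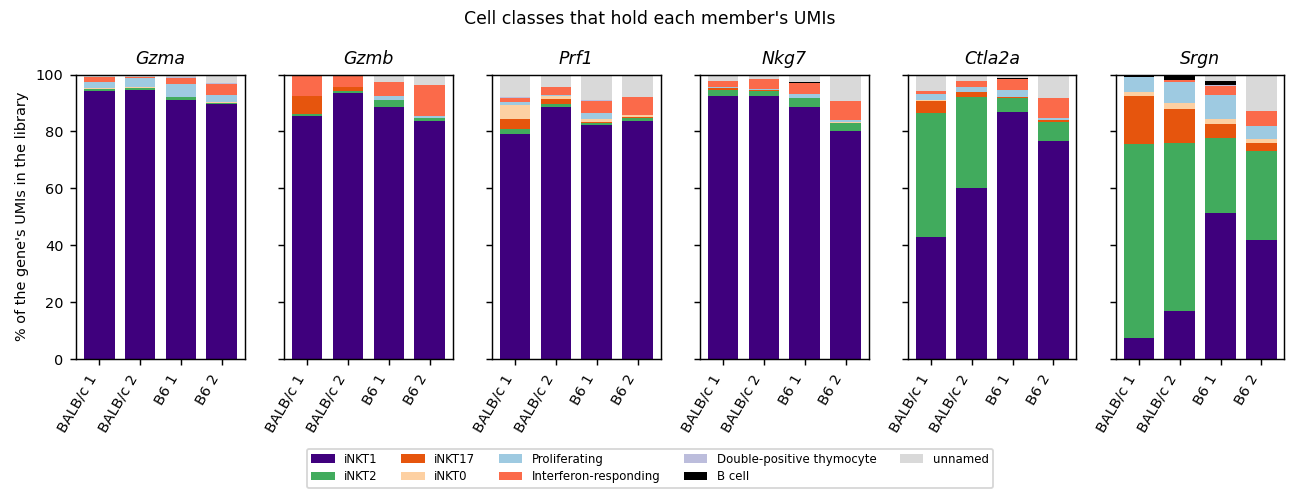
Stacked bars give the percent of each gene's UMIs in a library (y axis) that lie in cells of each class, for 6 members and the 4 libraries. The iNKT1-like part is above 79% for Gzma, Gzmb and Nkg7 in every library, and for Srgn it is between 7.51% and 51.3%.

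Gzma stood at 885, 762, 382 and 303 CPM in iNKT1-like cells, given here and below with the 2 BALB/c libraries first and the 2 B6 libraries after them (CPM of summed UMIs with no scaling factor). In iNKT2-like cells of the same libraries it was at 0.716, 1.54, 10.3 and 4.14 CPM, and in iNKT17-like cells at 0.546, 0.437, 2.20 and 0 CPM. So both BALB/c libraries were above both B6 libraries in iNKT1-like cells and below them in iNKT2-like cells. Gzmb stood at 310, 402, 467 and 571 CPM in iNKT1-like cells and at 0.215, 1.11, 32.4 and 12.6 CPM in iNKT2-like cells, lower in BALB/c in both classes. Its level in iNKT17-like cells was 11.2, 11.4, 14.3 and 25.6 CPM.

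Prf1 stood at 73.6, 61.7, 46.5 and 48.1 CPM in iNKT1-like cells and at no more than 1.54 CPM in iNKT2-like cells. Nkg7 was the most evenly held of the iNKT1-like genes, at 1785, 1716, 1628 and 1622 CPM. It was found in 97.3%, 97.4%, 95.4% and 96.0% of iNKT1-like cells thinned to 3000 UMIs per cell, and in 98.9%, 99.2%, 98.3% and 98.4% without thinning. Outside this class Nkg7 separated the strains: in iNKT2-like cells it was at 5.37 and 12.7 CPM in BALB/c against 145 and 94.2 in B6. Set against the iNKT1-like cells of the same library, this was 0.301% and 0.741% of their level in BALB/c against 8.89% and 5.81% in B6.

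Ctla2a stood at 170, 165, 290 and 359 CPM in iNKT1-like cells, higher in both B6 libraries. In iNKT2-like cells it was at 22.0, 30.9, 45.5 and 56.8 CPM, which is 13% to 18.7% of the iNKT1-like level and thus a similar part in both strains. Srgn was at 836 to 917 CPM in iNKT1-like, 1068 to 1210 CPM in iNKT2-like and 920 to 1125 CPM in iNKT17-like cells. It was lower in iNKT0-like cells, an early stage, at 524 to 602 CPM. In double-positive-thymocyte-like cells, precursors without cytotoxic granules, Srgn was at 30.1 to 178 CPM.

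**Figure D2:**
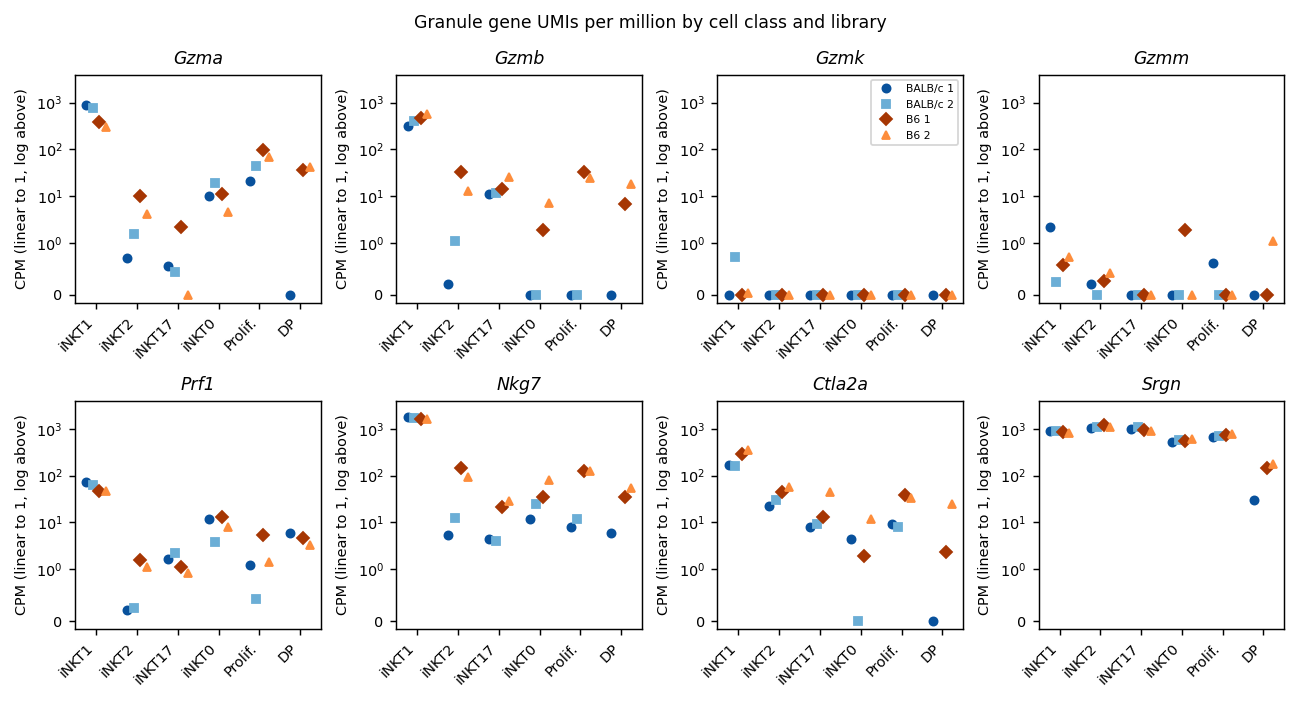
Points give the level of each member in CPM (y axis, linear up to 1 and logarithmic above) for 6 cell classes (x axis; Prolif., proliferating cells; DP, double-positive-thymocyte-like cells) in each library with at least 20 such cells. Gzma, Gzmb, Prf1 and Nkg7 are highest in iNKT1-like cells, and Srgn is at 836 to 1210 CPM in the 3 effector classes.

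Over all kept cells, Ctla2a was lower in BALB/c and was the only member past the test. Its TMM-scaled CPM was 31.7 and 52.0 in BALB/c against 179 and 209 in B6, groups that do not overlap. The difference was -2.22 on the log2 scale (SE 0.27, edgeR quasi-likelihood test with Benjamini-Hochberg adjustment over 12882 genes, adjusted p = 0.0285). Gzmb (-2.41, SE 0.51, edgeR adjusted p = 0.0675), Nkg7 (-1.90, SE 0.41, edgeR adjusted p = 0.0702) and Prf1 (-1.43, SE 0.30, edgeR adjusted p = 0.0651) did not pass. Gzma differed by -0.72 (edgeR adjusted p = 0.310) and its strains overlapped, at 75.5 and 153 CPM in BALB/c against 225 and 151 in B6. Srgn differed by 0.13 (edgeR adjusted p = 0.308), and Gzmm by 0.02 (edgeR adjusted p = 0.986). Of the 8 members, 7 passed the filter on low counts and 1 was called, beside 7.39% of all genes tested.

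In bulk sums such as these, fewer iNKT1-like cells and less RNA per cell cannot be told apart. Without either BALB/c library no member was called, with Ctla2a at -1.90 (edgeR adjusted p = 0.228) without BALB/c 1 and -2.61 (edgeR adjusted p = 0.122) without BALB/c 2, and 5 and 4 members were called without B6 1 and B6 2, beside 5166 of 13772 and 1830 of 13261 genes tested. Over all genes edgeR then called 0 without either BALB/c library, with 1386 and 1641 at an unadjusted p under 0.05. With the replicate block 0 members were called (Ctla2a -2.25, edgeR adjusted p = 0.0536), beside 38 of 12882 genes. DESeq2 and edgeR with no filter each called 4 members, beside 1685 of 14087 and 1069 of 21013 genes.

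**Figure D3:**
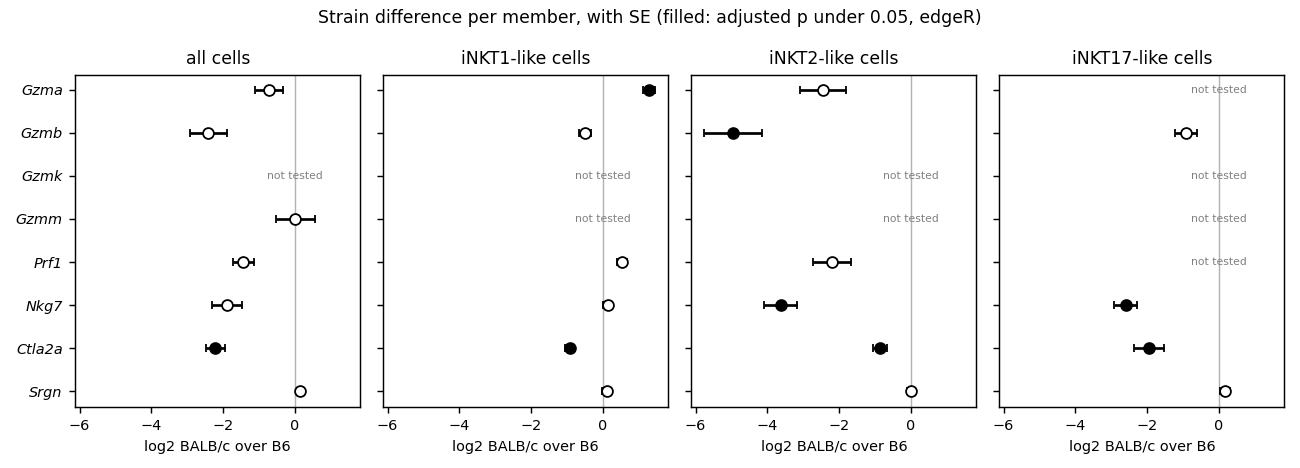
Points give the log2 difference of BALB/c over B6 (x axis) for each member in all cells and in 3 classes, from 2 libraries per strain, with the SE as bars; filled points have an edgeR adjusted p under 0.05. Within iNKT1-like cells Gzma lies to the right at 1.29 and Ctla2a to the left at -0.92, while in iNKT2-like cells the filled points are all to the left.

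Within iNKT1-like cells, Gzma was higher and Ctla2a lower in BALB/c. Gzma had scaled levels of 889 and 779 CPM in BALB/c (834 ± 77.6, SD, n = 2) and 394 and 289 CPM in B6 (341 ± 74.3, SD, n = 2). The difference was 1.29 on the log2 scale (SE 0.18, edgeR adjusted p = 0.0127). Ctla2a had 170 and 169 CPM in BALB/c (169 ± 1.26, SD, n = 2) and 299 and 342 CPM in B6 (321 ± 30.7, SD, n = 2), a difference of -0.92 (SE 0.12, edgeR adjusted p = 0.0104). Both genes thus separated the strains in opposite directions within 1 class. Of the 6 members that passed the filter, 1 was called higher, beside 2.44% of all 10630 genes tested, and 1 lower, beside 2.02%.

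The other 4 members tested in iNKT1-like cells did not pass. Gzmb differed by -0.50 (SE 0.16, edgeR adjusted p = 0.180), its libraries being at 311 and 411 CPM in BALB/c, below 482 and 543 CPM in B6. Prf1 differed by 0.54 (SE 0.13, edgeR adjusted p = 0.0862), with 74.0 and 63.1 CPM above 48.0 and 45.8 CPM. Nkg7 (0.14, SE 0.12) and Srgn (0.11, SE 0.13) had edgeR adjusted p of 0.627 and 0.722. With the replicate block Prf1 passed as well (0.54, edgeR adjusted p = 0.0199) and 3 members were called, beside 996 of 10630 genes. Without BALB/c 1 and without BALB/c 2 no member was called, with Gzma at 1.20 (edgeR adjusted p = 0.322) and 1.38 (edgeR adjusted p = 0.344) and Ctla2a at -0.91 (edgeR adjusted p = 0.334) and -0.92 (edgeR adjusted p = 0.395). Over all genes 24 and 0 were then called, with 1088 and 1092 at an unadjusted p under 0.05. Without B6 1 there were 6 members called, beside 3305 of 10461 genes, and without B6 2 there were 4, beside 1255 of 10199.

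Natural killer cells also carry granzyme A, and the sum of their marker list moved with Gzma. In iNKT1-like cells its 8 genes summed to 251 and 296 CPM in BALB/c against 121 and 117 CPM in B6. All 8 were in the tables, but they did not all move this way. Cma1 was at 0 in every library, and Klra8 was at 0 in BALB/c and found in B6. Gzmc, also on the list, was lower in BALB/c without passing the test. Ncr1, a receptor that defines natural killer cells, was at 28.5 and 14.5 CPM against 2.39 and 2.45 CPM, a small part of the sums. The rest of the list was Eomes, Klra4, Klra7 and Klri2. Klra7 was among the leading genes of cluster 4 and Klri2 among those of cluster 15. Cd3e in the same cells was at 1351 to 1565 CPM. In the iNKT1-like cells with no UMI of these 8 genes, 65.2% to 84.0% of the thinned cells, the Gzma difference was as large, at 1.47 (SE 0.21, edgeR adjusted p = 0.0145), and that of Ctla2a was -0.90 (SE 0.14, edgeR adjusted p = 0.0190). In those cells 3.49% of all genes tested were called. The thinned iNKT1-like cells held on average 0.713, 0.885, 0.360 and 0.344 UMIs of the 8 genes. A cell with none of these UMIs may still be a natural killer cell. The list was not used to name classes because iNKT cells may carry its genes too, so no class of natural killer cells could be named. Their part in the Gzma difference was not tested.

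Most Gzma UMIs of the iNKT1-like cells lay in a small part of the cells. After thinning to 3000 UMIs per cell it was detected in 22.6% of 261 cells in BALB/c 1 (exact 95% binomial interval 17.7% to 28.2%) and 22.3% of 583 cells in BALB/c 2 (19.0% to 25.9%). In B6 the values were 12.7% of 1376 cells (11% to 14.6%) and 11.9% of 4626 cells (11% to 12.9%). These intervals cover counting error only. Without thinning the shares were 25.5%, 25.3%, 16.6% and 14.7%, and thinning left out 17, 15, 20 and 94 shallower cells. In double-positive-thymocyte-like cells of B6, taken as the class for comparison, Gzma was found in 6.25% of 48 and 12.7% of 110 thinned cells. Their median depth before thinning was 2379 and 2714 UMIs, against 7151.5 and 6869 in the iNKT1-like cells of B6. The share in B6 2 was thus not above that of the thymocyte-like cells, so the presence of a UMI is not read alone there. The level was 382 and 303 CPM in iNKT1-like against 36.9 and 41.6 CPM in thymocyte-like cells. The thymocyte-like cells of B6 had 1.07 and 0.776 Gzma UMIs per Nkg7 UMI, against 0.235 and 0.187 in the iNKT1-like cells, and a higher Gzma level than the iNKT2-like cells. Their Gzma is given as a value for comparison, and whether it is a background common to all classes was not tested. In BALB/c only 13 and 1 thymocyte-like cells reached the depth, none with a Gzma UMI.

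Cells with 1 Gzma UMI were 3.07% to 3.71% of the thinned iNKT1-like cells, and those with 2 to 4 were 5.36%, 5.15%, 2.69% and 3.09%. Cells with 5 or more thinned Gzma UMIs were 14.2% and 13.6% of the iNKT1-like cells in BALB/c against 6.32% and 5.58% in B6, and they held 94.6%, 92.7%, 90.2% and 86.6% of its UMIs there. A cell with any Gzma UMI had on average 13.2 and 10.9 of them in BALB/c against 9.30 and 7.46 in B6, with medians of 10, 6, 4 and 4. Both the share of positive cells and the mean per positive cell were therefore higher in both BALB/c libraries. Gzmb was spread differently: it was detected in 39.5%, 43.1%, 47.3% and 54.5% of the thinned cells, with means of 2.11 to 2.99 UMIs per positive cell. Cells with 5 or more UMIs held 18% of its UMIs in BALB/c 1 and 38.0% to 46.5% in the other libraries. Prf1 gave at most 3 UMIs in a thinned cell and was found in 21.5% and 17.3% of these cells in BALB/c against 12.2% and 13.7% in B6. Ctla2a was detected in 30.3% and 29.5% of cells in BALB/c against 47.9% and 56.0% in B6.

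**Figure D4:**
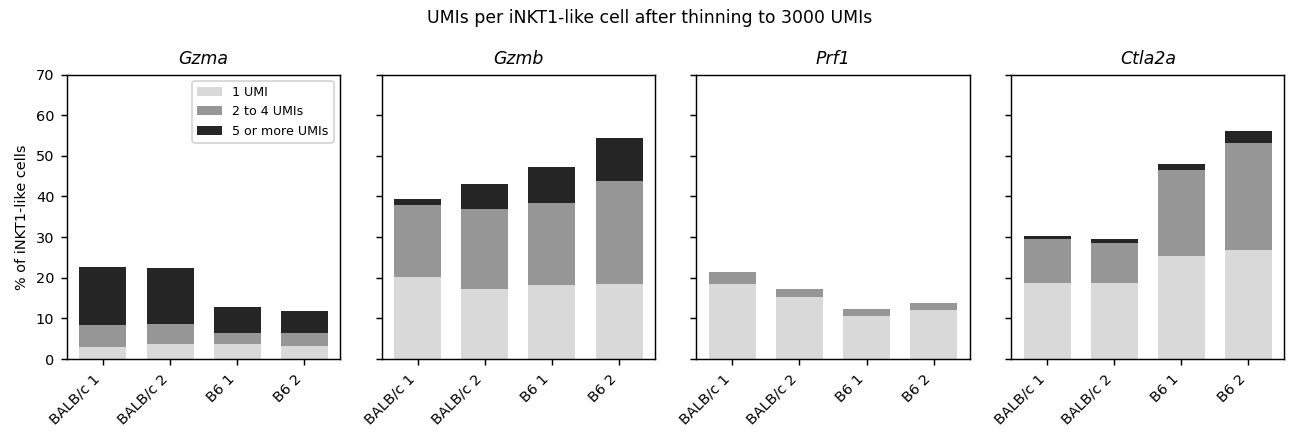
Stacked bars give the percent of iNKT1-like cells (y axis) with 1, 2 to 4, or 5 or more UMIs of Gzma, Gzmb, Prf1 and Ctla2a in each library, after thinning to 3000 UMIs per cell. For Gzma the dark part (5 or more UMIs) is 14.2% and 13.6% in BALB/c against 6.32% and 5.58% in B6, while for Prf1 there is none.

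Gzma was detected more often in cells with Ccl5, a chemokine of effector lymphocytes that was used as a marker of the class. Ccl5 was detected in 51.7% and 42.5% of the thinned iNKT1-like cells in BALB/c and in 25.2% and 21.4% in B6. Among cells with a Ccl5 UMI, Gzma was detected in 41.5%, 45.2%, 32.6% and 33.2%, against 2.38%, 5.37%, 6.03% and 6.16% of those without. Cells without Ccl5 numbered 126, 335, 1029 and 3637, so in B6 many cells with Gzma had no Ccl5 UMI. Gzmb and Prf1 were also detected more often beside Ccl5 in each library (Gzmb in 49.2% to 65.1% against 27.8% to 51.6%, and Prf1 in 15.3% to 29.6% against 11.2% to 12.7%). Ctla2a went the other way in BALB/c, with 22.2% and 25.4% beside Ccl5 against 38.9% and 32.5% without, and was at 47.8% against 47.9% in B6 1 and 52.4% against 57.0% in B6 2. Nkg7 and Srgn were detected in over 86% of cells on both sides of the split.

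Split by Ccl5, the strain difference of Gzma was smaller in one part and had the other sign in the other. The split used the thinned UMIs and the test the full counts. In cells with a Ccl5 UMI Gzma was at 1677 and 1795 CPM in BALB/c against 1190 and 989 CPM in B6, a difference of 0.67 (SE 0.16, edgeR adjusted p = 0.0602). In cells without one it was at 14.2 and 97.7 CPM in BALB/c against 124 and 101.95 CPM in B6, a difference of -0.82 (SE 0.54, edgeR adjusted p = 0.570). So the call for Gzma was not made in either part. Ctla2a was lower in BALB/c in both, by -1.14 (SE 0.14, edgeR adjusted p = 0.00298) with Ccl5 and by -0.72 (SE 0.14, edgeR adjusted p = 0.0502) without. Of the 6 members tested, 1 was called with Ccl5, beside 3.37% of all genes, and 0 without, beside 2.3% (1424 of all genes had an unadjusted p under 0.05 there).

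**Figure D5:**
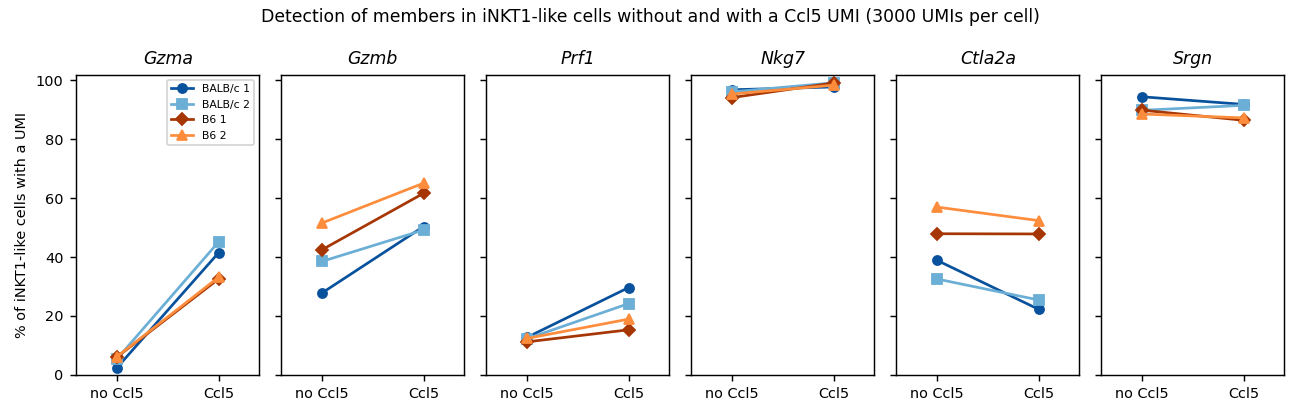
Lines join the percent of iNKT1-like cells with a UMI of each member (y axis) in cells without and with a Ccl5 UMI (x axis), per library, at 3000 UMIs per cell. Gzma goes from 2.38% to 6.16% without Ccl5 up to 32.6% to 45.2% with it, and Nkg7 is near the top on both sides.

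The clusters, which had been formed without the members, also differed in Gzma. Cluster 15, which held 348 cells of B6 1 and 1075 of B6 2, had Gzma at 1419 and 1280 CPM. Cluster 11, with 1018 cells of B6 1 and 375 of B6 2, had 21.9 and 4.14 CPM, and clusters 12 and 19, with 2036 and 1234 cells of B6 2, had 19.6 and 13.3 CPM. Gzmb differed far less, at 657 and 736 CPM in cluster 15 against 359 to 575 CPM in the other 3. Ctla2a was lower in cluster 15, at 232 and 265 CPM against 309 to 391 CPM, and so was Srgn, at 694 and 697 CPM against 822 to 971 CPM. Nearly all iNKT1-like cells of BALB/c were in cluster 4, with 271 and 587 cells and Gzma at 908 and 776 CPM. At Leiden resolution 1.5 nearly all were in a cluster of 135 and 310 cells and another of 134 and 285 cells, which had Ccl5 among its leading genes. The mean Gzma UMIs per cell, with each cell scaled to an equal total, were 0.0959 and 18.5 in these, beside 13.2 in cluster 15. These are descriptions of clusters, with no test.

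Among the members themselves, Gzma was detected more often in cells that also had Gzmb or Prf1. Gzma was found in 28.2%, 32.7%, 19.0% and 16.7% of thinned iNKT1-like cells with a Gzmb UMI, against 19.0%, 14.5%, 7.03% and 6.26% of those without. Beside a Prf1 UMI it was found in 42.9%, 38.6%, 20.2% and 21.9%, against 17.1%, 18.9%, 11.7% and 10.4% of the others. In each of the 4 libraries the share was higher beside the partner gene. Beside a Ctla2a UMI it was less frequent in BALB/c, at 16.5% and 15.1% against 25.3% in both libraries without Ctla2a. In B6 the shares were 12.6% and 10.4% beside Ctla2a against 12.8% and 13.9% without. Each share is over the cells of 1 library at equal depth, with no test.

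Within iNKT2-like cells, Nkg7, Gzmb and Ctla2a were lower in BALB/c than in B6. Nkg7 had scaled levels of 5.51 and 13.3 CPM in BALB/c against 145 and 88.0 CPM in B6, a difference of -3.63 (SE 0.45, edgeR adjusted p = 0.0117). Gzmb had 0.220 and 1.16 CPM against 32.5 and 11.8 CPM, a difference of -4.96 (SE 0.80, edgeR adjusted p = 0.0217). The BALB/c levels rest on 3 and 13 Gzmb UMIs, so the size of that difference is loosely set. Ctla2a had 22.5 and 32.3 CPM against 45.7 and 53.1 CPM, a difference of -0.87 (SE 0.19, edgeR adjusted p = 0.0495). Gzma (-2.45, SE 0.64, edgeR adjusted p = 0.0724) and Prf1 (-2.20, SE 0.54, edgeR adjusted p = 0.0614) did not pass. Srgn had 1096 and 1151 CPM against 1214 and 1034 CPM, strains that overlapped (edgeR adjusted p = 1.00). Of the 6 members tested 3 were called lower, beside 6.1% of all genes, and 0 higher, beside 4.81%.

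Nkg7 was detected in 0.909% (exact 95% interval 0.393% to 1.78%) and 2.55% (1.52% to 3.99%) of thinned iNKT2-like cells in BALB/c, against 23.0% (17.4% to 29.3%) and 15.6% (13.5% to 17.8%) in B6. Without thinning the shares were 2.71%, 4.65%, 40.7% and 32.5%. Double-positive-thymocyte-like cells of B6 gave 2.08% and 10.0%, below the B6 iNKT2-like shares of the same library. The shares of Gzmb in B6 iNKT2-like cells, 3.35% and 2.35%, were close to the 2.08% and 2.73% of these thymocyte-like cells, while its level in B6 1 was 32.4 CPM against 6.92 CPM. Those of Gzma, 1.44% and 0.905%, were below their 6.25% and 12.7%. So neither share is read alone as expression by iNKT2-like cells. The thymocyte-like cells were shallower than the iNKT2-like cells of B6, whose median was 16539 and 16350.5 UMIs.

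Markers of iNKT1 cells moved with these genes: their summed level in iNKT2-like cells was 692 and 651 CPM in BALB/c against 1126 and 1159 CPM in B6, with 14 of 14 in the tables and Klre1 at 0 in BALB/c 1. When only iNKT2-like cells with no UMI of these markers were kept, 204, 158, 22 and 113 cells, Nkg7 still differed by -4.24 (edgeR adjusted p = 0.000308), beside 6.16% of all genes called. It was detected in 0.490%, 0%, 13.6% and 7.97% of these cells, lower than in the whole class in each library, and in B6 2 lower than the 10.0% of thymocyte-like cells. Ctla2a then differed by -0.60 (edgeR adjusted p = 0.245), and the granzymes had too few UMIs to be tested. Without BALB/c 1 no member was called in the whole class (Nkg7 -3.11, edgeR adjusted p = 0.0652; Gzmb -4.17, edgeR adjusted p = 0.165), and without BALB/c 2 only Nkg7 was, with Gzmb at -6.52 (edgeR adjusted p = 0.102). Over all genes 63 of 12237 and 94 of 12577 were then called. Ctla2a was also lost without either, at -0.61 (edgeR adjusted p = 0.337) and -1.13 (edgeR adjusted p = 0.125). It was lost as well at Leiden resolution 1.5 (edgeR adjusted p = 0.0788) and with the members allowed in the clustering (edgeR adjusted p = 0.0749). Without B6 1, 6 members were called, beside 5515 of 12546 genes, and without B6 2, 4 were, beside 2559 of 11796.

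The strain difference itself differed between iNKT1-like and iNKT2-like cells for the 4 genes of the killing machinery. The log2 difference of BALB/c over B6 in iNKT1-like cells minus that in iNKT2-like cells was 3.59 for Gzma (SE 0.30, edgeR adjusted p = 1.03e-11), 4.07 for Gzmb (SE 0.45, edgeR adjusted p = 9.52e-09), 2.73 for Prf1 (SE 0.53, edgeR adjusted p = 0.000252) and 3.72 for Nkg7 (SE 0.17, edgeR adjusted p = 8.69e-19). For Ctla2a it was -0.08 (SE 0.11, edgeR adjusted p = 0.764) and for Srgn 0.11 (SE 0.06, edgeR adjusted p = 0.314). Of the 6 members tested 4 were called higher, beside 6.52% of all genes, and the same count was called without each of the 4 libraries. With classes set by each cell's own marker score the value of Ctla2a became 0.92 (edgeR adjusted p = 2.73e-09). Beside these calls stand the low levels in iNKT2-like cells. In B6 Gzma was at 10.3 and 4.14 CPM there against 36.9 and 41.6 CPM in thymocyte-like cells, and Prf1 at 1.54 and 1.09 CPM against 4.61 and 3.28 CPM. Gzmb was at 32.4 and 12.6 CPM against 6.92 and 18.6 CPM, and Nkg7 in BALB/c 1 at 5.37 CPM against 6.01 CPM.

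Within iNKT17-like cells, Nkg7 and Ctla2a were lower in BALB/c. Nkg7 had 4.33 and 4.004 CPM in BALB/c against 22.1 and 27.7 CPM in B6, a difference of -2.59 (SE 0.33, edgeR adjusted p = 0.00264). Ctla2a had 7.85 and 9.34 CPM against 13.96 and 43.9 CPM, a difference of -1.95 (SE 0.43, edgeR adjusted p = 0.0356). Gzmb had 11.1 and 11.6 CPM against 15.1 and 24.6 CPM (-0.91, SE 0.31, edgeR adjusted p = 0.149), and Srgn differed by 0.17 (edgeR adjusted p = 0.621) with strains that overlapped. Of the 4 members tested 2 were called lower, beside 2.36% of all genes, and 0 higher, beside 2.38%. The B6 libraries held 70 and 173 such cells, and Nkg7 in 2.94% and 7.06% of the thinned ones was near the thymocyte-like 2.08% and 10.0%. The summed iNKT1 markers in iNKT17-like cells were at 810 and 703 CPM in BALB/c, with 4 and 6 of 14 at 0, and at 1178 and 1177 CPM in B6, with 4 and 0 at 0, and their part in these differences was not tested. Ctla2a was not called without BALB/c 1 (-1.74, edgeR adjusted p = 0.218), without B6 2 (-0.72, edgeR adjusted p = 0.481) or by DESeq2 (-1.80, DESeq2 adjusted p = 0.127). Without B6 1, 3 members were called, beside 1554 of 9931 genes.

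Gzmk and Gzmm were close to undetected. Gzmk gave 2, 3, 0 and 1 UMIs over all kept cells of the 4 libraries in the same order, and its count of 0 in B6 1 allows up to 0.153 CPM. It was too low to be tested anywhere. Gzmm gave 15, 6, 8 and 39 UMIs, with a strain difference of 0.02 over all cells (SE 0.55, edgeR adjusted p = 0.986). Of its UMIs in BALB/c, 7 of 15 and 5 of 6 were in cluster 5, which has 11 and 14 cells there and stayed unnamed. Its leading gene by fold was Eomes, a T-box factor of natural killer and memory T cells.

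Genes whose levels most resembled a member were ranked by Pearson r of log2(CPM + 1) over 20 sums (5 classes in 4 libraries) among 7533 genes. They share libraries and classes with the members, so r is a description. For Gzma these were Rcbtb2 (r = 0.95), Ifitm2 (r = 0.94) and Il12rb2 (r = 0.88), the last a chain of the interleukin 12 receptor. For Gzmb they were Il2rb (r = 0.94), a chain of the interleukin 2 and 15 receptors, Susd3 and Ppp1r12a (r = 0.93 each). Nkg7 was most like Xcl1 (r = 0.96), a chemokine, Fasl (r = 0.95), the Fas ligand, and Klre1 (r = 0.95), a lectin-like receptor; Xcl1, Fasl, Klre1 and Il2rb were markers used to name the class. Ctla2a was most like Ifitm10, Ppm1j and AW112010 (r = 0.93 each), and Srgn like Arpc1b (r = 0.93), an actin-nucleation subunit, Slfn1 (r = 0.91) and Tmem229b (r = 0.89).

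Other genes of granule biology were followed in a list of 61 that holds no member. In iNKT1-like cells 5 of 54 tested were higher in BALB/c, beside 2.44% of all genes, 4 were lower, beside 2.02%, and 45 did not pass, with a median difference of -0.13 beside -0.02 over all genes. Eomes was at 15.1 and 12.6 CPM in BALB/c against 0.198 and 0.167 CPM in B6 (edgeR adjusted p = 0.00084). Serpinb9b, of the granzyme B inhibitor family, was at 10.1 and 6.68 CPM against 0.395 and 0.0278 CPM (edgeR adjusted p = 0.0131). Sytl3, a Rab27 effector, was higher by 1.21, Tcf7, a factor of less differentiated T cells, by 0.91, and Arl8b, a GTPase of lysosome transport, by 0.71. Zfp683, which encodes the residency factor Hobit, differed by -1.45, the lysosomal sulfatase Arsb by -1.01, Rab27a, the GTPase that docks granules, by -0.81, and Id2 by -0.69 (edgeR adjusted p between 0.00183 and 0.0490 for these 7).

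In iNKT2-like cells 3 of 49 listed genes were higher in BALB/c, beside 4.81% of all genes, 12 were lower, beside 6.1%, and 34 did not pass, with a median of -0.21 beside -0.02 over all genes. The lowest p among the lower ones belonged to Zfp683 (-3.46), Arsb (-2.82), Tbx21 (-2.27), which encodes T-bet, Hopx (-6.54) and Serpinb6b (-1.15). The higher ones were Tcf7 (0.46), Man2b1 (0.46), a lysosomal mannosidase, and Ltb (0.39), which encodes lymphotoxin beta. In iNKT17-like cells 2 of 46 were higher, Lamp1 (0.76) and Ctsl (2.31), beside 2.38% of all genes. The 4 that were lower, beside 2.36%, were Hopx (-4.85), Prdm1 (-4.17), Sytl3 (-2.02) and Ctla2b (-2.40). Over all cells 6 of 56 were higher, beside 3.67% of all genes, and 10 were lower, beside 3.72%. The higher ones of lowest p were Lamp2 (0.59), Ctsl (3.06), Eomes (3.16), Tcf7 (0.89) and Man2b1 (0.54), and the lower ones Id2 (-0.94), Zfp683 (-3.42), Tnfsf10 (-1.37), Arsb (-2.72) and Tbx21 (-2.07). All of these had an edgeR adjusted p under 0.05. Tbx21, Id2 and Hopx were also among the markers that named the iNKT1-like class.

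Paralogs of the members were mostly too low to test. Gzmc was tested over all cells (-2.33, edgeR adjusted p = 0.0964) and in iNKT1-like cells (-0.79, edgeR adjusted p = 0.525), and Gzmd, Gzme, Gzmf, Gzmg and Gzmn nowhere. Ctla2b lies 36707 bases from Ctla2a, and the longest transcripts of the pair match at 93.4% of 472 aligned bases, so the counting could split reads between them. Ctla2b differed by -1.54 over all cells (edgeR adjusted p = 0.0570), -0.16 in iNKT1-like cells (edgeR adjusted p = 0.570), -0.65 in iNKT2-like cells (edgeR adjusted p = 0.0739) and -2.40 in iNKT17-like cells (edgeR adjusted p = 0.0281). It therefore did not share the iNKT1-like call of Ctla2a, whose own value is uncertain to the extent that reads were split.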

How the data were processed

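The authors deposited, per library, a matrix of whole-number UMI counts per gene and barcode from 5' single-cell RNA libraries, not normalized. Cell Ranger 7.1.0 and mm10, a B6 genome, stand in the submitters' processing notes; the file headers give 6.0.0 for 3 libraries and 7.1.0 for B6 2. The members and all lists were chosen with earlier results of these data known.

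Kept barcodes had at least 500 genes, at least 1000 UMIs and at most 10% mitochondrial UMIs; removed as doublets were those of highest Scrublet score at 0.8% per 1000 barcodes. Cells were clustered with scanpy (2000 variable genes without members or listed granule genes, 30 principal components, 15 neighbours, Leiden resolution 1.0) and named from marker lists (mean log2 fold of at least 0.3, at least 40% of markers above 0.5, at least 4 of them). This naming rule was set after the data were seen, and rebuilt classes may differ from the study's. UMIs were summed per library and class and tested with edgeR 4.0.16 (TMM, filterByExpr, glmQLFit, glmQLFTest, strain as the only term), Benjamini-Hochberg adjusted over all genes tested, at 0.05. The interaction used 8 sums with the library as a block. SE is the absolute log2 change divided by the square root of F. CPM is scaled by TMM where a test is given and unscaled elsewhere. Shares of cells used 3000 UMIs per cell, leaving out shallower cells, and floors are 3 counts. Cell subsets with or without a UMI of Ccl5 or of markers were set by these thinned UMIs and tested on full counts. The code was checked on simulated data. Alternatives were other size factors, no filter, DESeq2, each library left out, blocks, other clusterings and cell subsets.

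Named genes were all members, up to 5 listed granule genes of lowest p per direction and comparison among those called, paralogs, and the 3 genes most like each member at a mean of 20 CPM or more. The exceptions are Cd3e, Ccl5, Ncr1, Klra4, Klra7, Klra8, Klri2, Cma1, Klre1, Trdc, and the clusters described, chosen after their values were seen.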

Additional observations from a re-analysis of the deposited data

Results flagged for a closer look

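The strain difference of 4 members differed between iNKT1-like and iNKT2-like cells by the test of the interaction itself. The value, as the log2 difference of BALB/c over B6 in iNKT1-like cells minus that in iNKT2-like cells, was 3.59 for Gzma, 4.07 for Gzmb, 2.73 for Prf1 and 3.72 for Nkg7, with edgeR adjusted p of 1.0e-11, 9.5e-09, 0.00025 and 8.7e-19. Variance was pooled over genes, so these p-values are not read for their size. Gzma was higher in BALB/c in iNKT1-like cells (885 and 762 CPM against 382 and 303) and lower in iNKT2-like cells (0.716 and 1.54 CPM against 10.3 and 4.14). The difference in iNKT2-like cells did not pass alone (-2.45, edgeR adjusted p = 0.0724). It rested on 10 and 18 Gzma UMIs in BALB/c, and the B6 levels were below the 36.9 and 41.6 CPM of thymocyte-like cells. Prf1 had 3, 3, 6 and 21 UMIs in iNKT2-like cells, so its value is loosely set. Nkg7 was near level in iNKT1-like cells and at 5.37 and 12.7 CPM against 145 and 94.2 CPM in iNKT2-like cells. With classes set by each cell's marker score 5 members were called, Ctla2a being the one added.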

How the results depend on the processing

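The labels number the libraries of each strain 1 and 2, but same-numbered libraries did not deviate together (r = -0.1965 over 7979 genes), so they share only a number. With the replicate block, members called became 0 over all cells, from 1, and were 3, 3 and 2 in the iNKT1, iNKT2 and iNKT17 classes, from 2, 3 and 2, beside 38, 996, 1108 and 575 of all genes; Gzmm over all cells became -0.090 and Srgn in iNKT2-like cells 0.0039. With the crossed replicate block, added after seeing the data, members called were 3, 2, 4 and 2 in the same order, beside 777, 684, 1302 and 559 of all genes, and Srgn in iNKT2-like cells 0.0039. Leaving out 1 library gave 0 to 5 members called over all cells, 0 to 6 in iNKT1-like, 0 to 6 in iNKT2-like and 1 to 3 in iNKT17-like cells, and 4 each time for the interaction, beside 0 to 5166, 0 to 3305, 63 to 5515, 170 to 1554 and 967 to 1445 of all genes in that order; the lone library of a strain is then assumed to vary like the others. No filter on low counts called 4 members over all cells and 4 in iNKT1-like cells, beside 1069 of 21013 and 1332 of 17919 genes, and DESeq2 called 4 over all cells and 1 in iNKT17-like cells, beside 1685 of 14087 and 229 of 10842 genes. Cell subsets chosen after seeing the data called 1 member in iNKT1-like cells with a Ccl5 UMI, 0 in those without (Gzma then -0.82) and 1 in iNKT2-like cells with no iNKT1 marker UMI, beside 308, 235 and 583 of all genes.

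The other reversed signs belonged to values reported near 0. With 1 library left out, Gzmm over all cells ranged from -0.74 to 0.54, Srgn in iNKT2-like cells from -0.12 to 0.15 and the interaction of Ctla2a from -0.31 to 0.21. Srgn in iNKT2-like cells became 0.010 with DESeq2's size factors, 0.014 with no filter, 0.022 with DESeq2, 0.045 at Leiden resolution 1.5 and 0.096 in cells with no iNKT1 marker UMI. The interaction of Ctla2a became 0.92 with classes by each cell's marker score. The cause was not tested. Of the other results with all libraries kept, 174 values of single members kept their direction and side of the threshold. Another 18 kept their direction but came to pass the threshold, and 7 no longer passed. With 1 library left out, values crossed the threshold in both directions too. Thinning to 2000 UMIs moved 23 of 31 shares by more than 1 SD.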

Other observations

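Gzma was also found with little Nkg7 outside the iNKT1-like cells. In cluster 14, proliferating cells led by Trdc and cell cycle genes, Gzma was at 157, 207 and 159 CPM in BALB/c 2, B6 1 and B6 2, with Gzmb at 0, 5.39 and 16.2 CPM. Gzma UMIs per Nkg7 UMI were 6.13, 3.50 and 4.08 there, against 0.187 to 0.496 in the iNKT1-like cells of the 4 libraries. The cluster had 35, 21 and 25 cells in these libraries. Cluster 7, found in BALB/c, unnamed and with raised markers of double-positive thymocytes, had Gzma at 42.7 and 45.6 CPM and Nkg7 at 4.27 and 0 CPM. Cluster 18, with 112 and 229 of the double-positive-thymocyte-like cells of B6, had Gzma at 46.6 and 46.8 CPM and Nkg7 at 31.1 and 45.3 CPM. The others of that class in B6, 56 and 88 cells in cluster 3, had means of 17.5 CPM for Gzma and 61.6 CPM for Nkg7.

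Cluster 17, with 681 cells of B6 2 and unnamed, held the reverse combination, with Nkg7 at 859 CPM, Gzmb at 40.1 CPM and Gzma at 3.66 CPM. Interferon-responding cells, 84 and 489 cells in the B6 libraries, had Gzmb at 454 and 730 CPM and Gzma at 140 and 134 CPM.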
